A study of Homo sapiens with 6 samples.

Results

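The genes described here encode the machinery of the early secretory pathway, which carries newly made proteins from the ribosome into the endoplasmic reticulum (ER) and on to the Golgi. Of 51 symbols in the list, 48 were measured, out of 18417 genes tested. COPG2 shared its probe set with another gene, and KDELR2 and SEC61G had no listed probe set, so these 3 were not analysed here. Members were taken by symbol from probe sets with exactly 1 gene symbol, and where a gene had several the rule took the brightest by its mean over the 6 arrays. Each of the 48 had 1 probe set, so that choice arose for 0 of them. The list was drawn up with earlier results of these data known, the low ARF1 signal among them, so the counts below describe these genes and are not independent support.

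The cells were MCF10A, a human mammary epithelial line that does not form tumours, in a version whose titles carry the name of ErbB2, a receptor tyrosine kinase, and RNA was read on single-channel arrays. The compared groups were 3 arrays labelled RB-deficient, with the tag miRB in their titles, and 3 arrays labelled RB-proficient, with the tag miNS. All 6 samples share the ErbB2 background, 7 days of 3-D culture in reconstituted basement membrane, and a medium with horse serum, insulin, cholera toxin and hydrocortisone. The labels do not spell out the tags, do not say whether the lines are clones, and do not say whether replicates were separate cultures, so p-values cover only how these samples vary, a spread that may be technical.

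Translocation begins when the SEC61 channel threads a nascent chain through the ER membrane, helped by SEC62, SEC63 and the TRAP complex (SSR genes), while oligosaccharyltransferase subunits such as the ribophorins (RPN1 and RPN2) add N-glycans. COPII coats, assembled by the GTPase SAR1, bud vesicles from the ER, and cargo receptors collect the proteins that enter them. COPI coats, recruited by ARF GTPases that GBF1 activates, return escaped ER proteins and receptors from the Golgi. Secretory epithelia such as the mammary gland depend on this traffic for milk proteins, and cultured mammary epithelium for its matrix and membrane proteins.

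Promoter letters did not enter the choice of the members. RefSeq promoter windows of GRCh38.p14, running from 250 bases before to 50 bases after an annotated start, were found for 43 of the 48 measured members, in 56 windows. The unfolded protein response element TGACGTGG, the core known to be bound by XBP1 and ATF6, was searched on both strands, as were all sequences below. It lay in 12 of 43 members (27.9%), against 253 of 27305 genes with a window (0.927%). The shorter sequence CCACG, which overlaps the reverse complement of TGACGTGG, lay in 38 of 43 members (88.4%) and in 42.1% of all genes with a window. Apart from the GC box, given below, the other elements lay at 0 or near the share of all genes. The full ER stress element (CCAAT, a spacer of fixed length and CCACG) and its second form (ATTGG, 1 base and CCACG) were in 0 of 43 members (0.0916% and 0.0696% of genes), the CCAAT box CCAAT in 41.9% (39.7% of genes) and the E-box CACGTG in 9.3% (8.77% of genes). The sequences of 30 bases below are shown 5′ to 3′ on the gene's strand, with the element or its reverse complement in capitals. ARF1, COPA and GBF1 are shown because their signals were among the lowest relative to RB-proficient arrays, and COPB1, SEC24A and SEC62 because theirs were not.
ARF1, chr1:228082681-228082710, + strand: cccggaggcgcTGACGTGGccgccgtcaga
COPA, chr1:160343227-160343256, − strand: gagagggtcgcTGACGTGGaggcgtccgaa
GBF1, chr10:102245526-102245555, + strand: gaggctagttaCCACGTCAgtgagctgaca
COPB1, chr11:14499841-14499870, − strand: cccacccccttCCACGTCAgccaaggactc
SEC24A, chr5:134648595-134648624, + strand: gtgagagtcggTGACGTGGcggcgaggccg
SEC62, chr3:169966779-169966808, + strand: ccctcctcgctCCACGTCAgagggaaccgg
COPB2, KDELR3, SEC23A, SSR3, SSR4 and STX5 also held the element. The 4 E2F octamers TTTCCCGC, TTTCGCGC, TTTGCCGC and TTTGGCGC, searched because RB restrains E2F factors, had matches in 0 of 43 members and in 3.99% of all genes with a window. The GC box GGGCGG lay in 35 of 43 members (81.4%), above its share of 48.3% of genes with a window. The cAMP response element TGACGTCA lay in 0 of 43 and 2.25%. The members' windows had a median of 66.0% G or C, against 58.67% over all windows, and these shares were neither tested nor matched for base composition. A match is a description of letters, not a site shown to be used.

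For the ARF family, where related genes differed in signal, the 250 bases upstream of an annotated start are printed for ARF1, the lowest member relative to RB-proficient arrays, and for ARF5, whose groups overlapped. Capitals mark TGACGTGG and the GC box GGGCGG or its reverse complement.
ARF1, chr1:228082458-228082707, + strand: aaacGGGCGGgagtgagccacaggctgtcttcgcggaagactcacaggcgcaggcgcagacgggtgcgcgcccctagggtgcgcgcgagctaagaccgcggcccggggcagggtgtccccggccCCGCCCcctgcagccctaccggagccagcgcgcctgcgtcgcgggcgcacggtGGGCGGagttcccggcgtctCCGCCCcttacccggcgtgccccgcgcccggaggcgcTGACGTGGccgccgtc
ARF5, chr7:127588161-127588410, + strand: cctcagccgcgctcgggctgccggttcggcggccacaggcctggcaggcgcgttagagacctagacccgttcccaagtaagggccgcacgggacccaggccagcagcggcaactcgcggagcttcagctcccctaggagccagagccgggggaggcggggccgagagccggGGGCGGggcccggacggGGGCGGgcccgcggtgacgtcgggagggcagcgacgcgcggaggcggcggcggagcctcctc
Both stretches hold 77.2% G or C. ARF1, from the first of its 3 annotated starts, had 1 TGACGTGG and 4 GC boxes, and ARF5 had 0 and 2.

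Signals are given as log2 of the deposited intensity after scaling each array to a common median, with values under 1 set to 1, so that 0 is the floor. Differences are RB-deficient minus RB-proficient on that scale, n = 3 arrays per group, with limma's p adjusted over all 18417 genes and a threshold of 0.05. Levels of different genes are not compared, because each probe set has its own brightness. RB1, the gene behind the labels, gave 3.45, 5.09 and 6.04 where the label was RB-deficient (arrays 1 to 3), against 7.01, 5.77 and 7.65 in RB-proficient arrays 1 to 3, a difference of −1.95 (SE 0.76, adjusted p 0.302). Because 1 RB-proficient array (number 2) read less than the array labelled RB-deficient 3, RB1 signal overlapped between groups, and every direction rests on the labels. ERBB2 differed by −1.31 (SE 0.48, adjusted p 0.288), with no overlap.

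Across all genes the arrays labelled RB-deficient 1 and 2 stood apart from the RB-proficient arrays, with Pearson correlations of 0.68 to 0.75. The array labelled RB-deficient 3 gave 0.83 to 0.88 with the RB-proficient arrays, which gave 0.90 to 0.92 among themselves. Among the arrays labelled RB-deficient the correlations were 0.67 to 0.75. The array labelled RB-deficient 3 was thus closer to the RB-proficient arrays than to the others of its label. ACTB and GAPDH, often used as loading controls, differed by −1.92 and −1.23, also without overlap. For all genes the median difference was −0.21, against −0.09 after quantile normalization or −0.08 after centring each array. Of 14 mammary epithelial markers 10 were measured, all above the floor in every array, with summed scaled intensities of 4762 to 6925 in the arrays labelled RB-deficient and 6677 to 9525 in RB-proficient arrays, and 9 of the 10 were lower. In the same order of groups, fibroblast markers (7 of 7 measured, with COL3A1 at the floor in 1 array labelled RB-deficient) summed to 141 to 291 and to 144 to 192. Endothelial markers (5 of 5) summed to 307 to 360 and to 477 to 598, and leukocyte markers (5 of 6) to 202 to 252 and to 336 to 462. The hormone receptor genes ESR1 and PGR, which MCF10A is known to lack, summed to 141 to 220 and to 78.8 to 105. Sums can rest on single genes. PGR differed by 1.63 (SE 0.49) without overlap, and ESR1 by 0.12 (SE 0.49) with overlap. Without overlap, 2 of 5 endothelial markers were lower, and of 5 leukocyte markers 1 was lower and 1 higher (15.3% and 7.12% of all genes). No marker passed the adjusted threshold. The part of these shifts in the results was not tested. Cells and matrix were lysed together, and in such bulk samples fewer cells of a type and less RNA per cell cannot be told apart.

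Signals of the early secretory members were mostly lower where the label was RB-deficient. Of the 48, 44 had a difference below 0, where 58.6% of all genes did, and 27 had a difference of −1 or lower, where 21.6% of all genes did. For 23 members the values in all 3 arrays labelled RB-deficient lay below all 3 RB-proficient values, which held for 15.3% of all genes, and for 0 members they lay above, which held for 7.12%. Those 23 make up 47.9% of the 48. The median difference of the members was −1.03, against −0.21 for all genes and −0.31 for the 9209 genes at or above the median mean signal. Those 9209 brighter genes include 43 of the 48 members. Among them 64.2% had a difference below 0, 20.7% had −1 or lower, and 19.2% were lower without overlap. By limma over all genes 0 members passed the adjusted threshold, as did 0.00543% of all genes, and at an unadjusted p under 0.05 there were 17 lower members (10.8% of all genes) and 0 higher ones (2.85%). The smallest adjusted p of a member was 0.166.

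The number of calls depended on the settings. When 16 was added to every value instead of a floor (an offset of 16), 8 members passed in the lower direction, where 1.01% of all genes did: ARF1, GBF1, COPA, COPG1, COPZ1, SURF4, ERGIC3 and RPN2. With limma's trend and robust options 5 passed (ARF1, GBF1, COPA, SURF4 and ERGIC3), where 0.331% of all genes did, and with a floor of 16 only ARF1 passed, where 0.261% did. None of the other 12 alternatives gave a member past the threshold. Each of the 8 members belongs to coat assembly, cargo collection or N-glycosylation, and 5 of them to the COPI group. Such calls were not confined to the members. ACTB also passed by limma, with the offset of 16 (adjusted p 0.0392) and with trend and robust (0.0464). GAPDH passed with neither (adjusted p 0.0905 and 0.123).

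**Figure D1:**
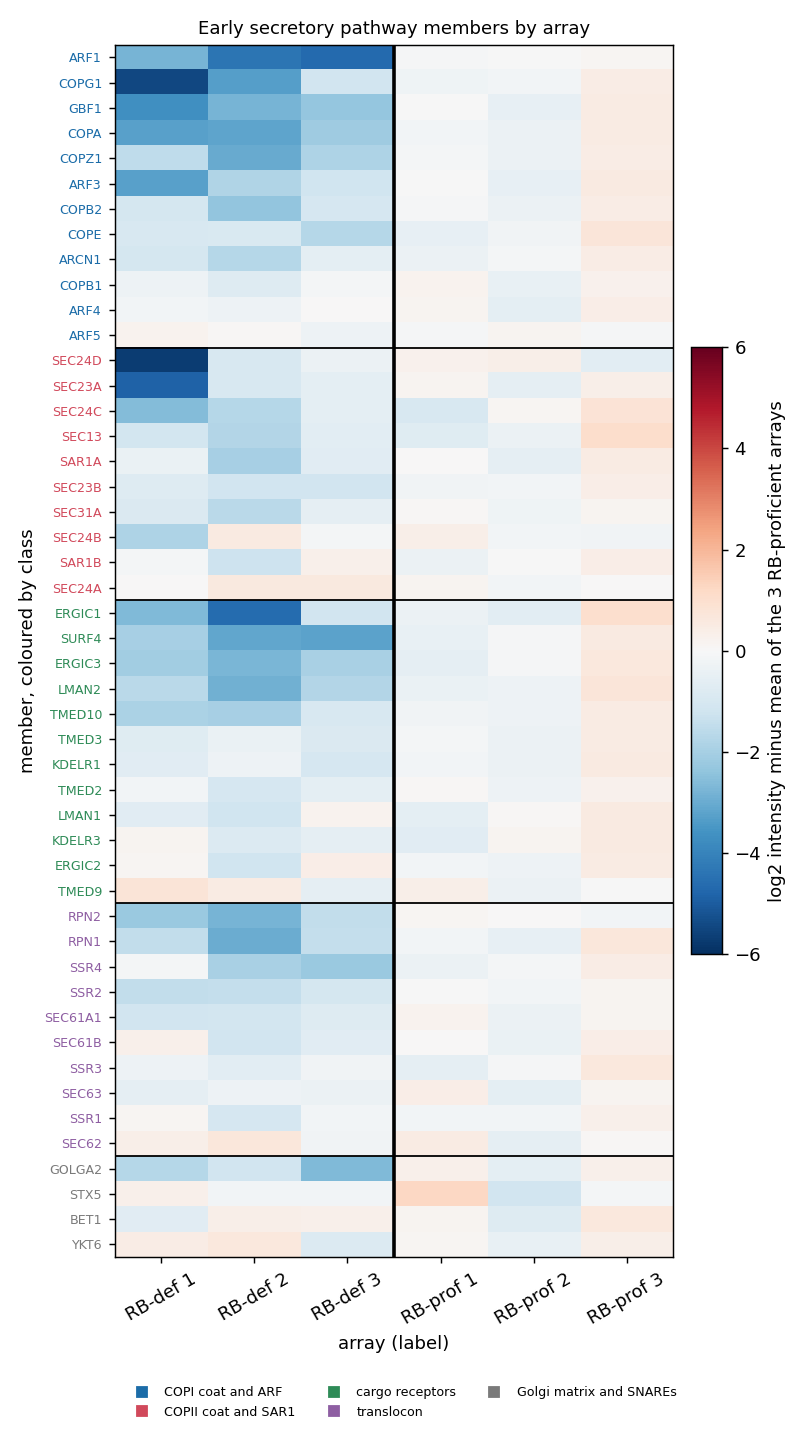
Log2 intensity of each measured member in each array minus its mean over the 3 RB-proficient arrays (colour, blue lower and red higher), with members as rows grouped by class and arrays as columns, the 3 labelled RB-deficient left of the 3 RB-proficient. Blue fills most of the COPI block in all 3 arrays labelled RB-deficient, while ARF4 and ARF5, whose signs turned with the scaling, and YKT6 stay pale or mixed.

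All 3 arrays labelled RB-deficient contributed. The array labelled RB-deficient 2 lay below every RB-proficient array for 37 of 48 members, where 48% of all genes did. In the array labelled RB-deficient 1 this held for 29 members (42.1% of all genes), and in the array labelled RB-deficient 3 for 31 (37.6% of all genes). The array labelled RB-deficient 3, which resembled the RB-proficient arrays most, thus had 64.6% of the members below the RB-proficient range. Set against the RB-proficient mean, the members' median was −0.92, −1.17 and −0.67 in arrays 1, 2 and 3 labelled RB-deficient, and −0.07, −0.31 and 0.43 in RB-proficient arrays 1, 2 and 3. RB-proficient array 3 was therefore the high one for these genes. Without the arrays labelled RB-deficient 1 and 2 the members' median was −0.67, against −0.14 for all genes. Members were spread more widely among arrays labelled RB-deficient (median SD 0.62) than among RB-proficient arrays (0.45), as was the median over all genes (0.84 and 0.40).

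The 5 groups of members had unequal medians. The COPI coat and ARF group (12 measured) had the lowest median, −1.78, with 9 of 12 lower without overlap, where 15.3% of all genes were. The COPII group (10) had a median of −1.03 with 3 of 10, the translocon group (10) −0.76 with 4 of 10, and the cargo receptors (12) −0.66 with 6 of 12. The 4 Golgi matrix and SNARE genes had a median of −0.02, a sign that turned with quantile normalization and with centring, and 1 of 4 without overlap. The shares of COPII (3 of 10) and of the Golgi matrix and SNARE genes are small counts not far from that of all genes. Without the arrays labelled RB-deficient 1 and 2 the medians were −1.17 for COPI, −0.56 for COPII, −0.93 for cargo receptors and −0.72 for the translocon, so the order of the last 3 changed. In each of the first 4 groups every median of an array labelled RB-deficient lay below every RB-proficient one. The median over all genes separated in the same way, by a smaller distance. It was −0.14, −0.37 and −0.14 in arrays 1 to 3 labelled RB-deficient, against −0.003, −0.08 and 0.10 in RB-proficient arrays 1 to 3. Differences between the groups were not tested, because the members were chosen with results known.

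**Figure D2:**
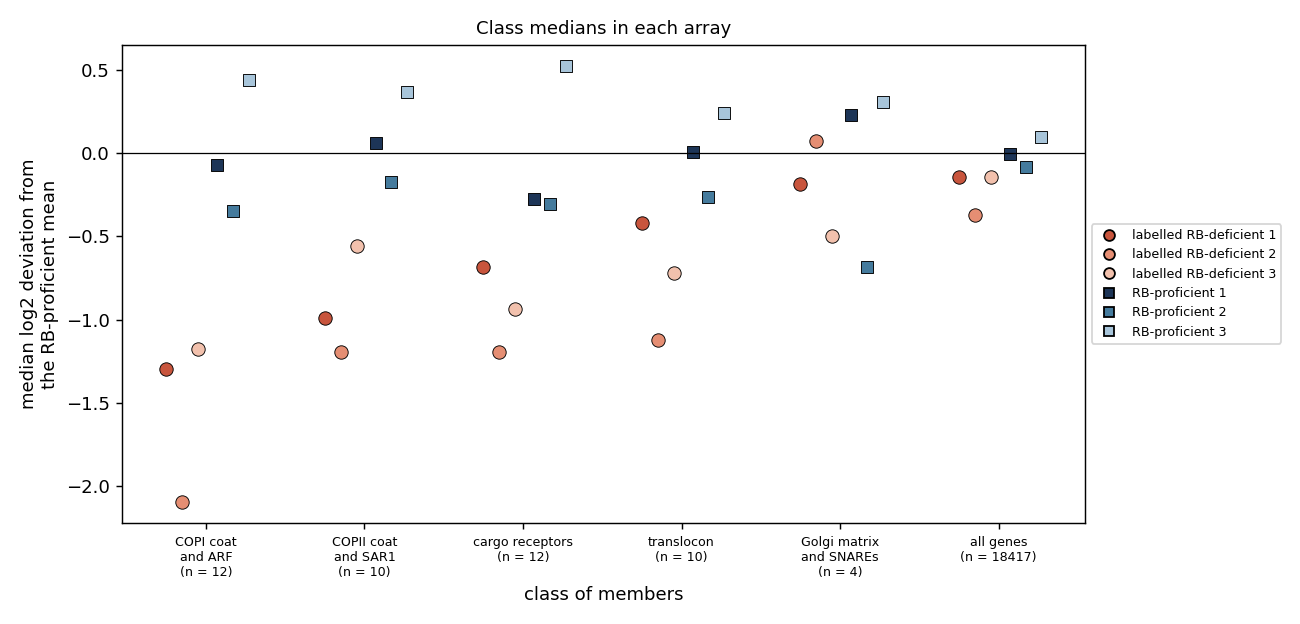
Median over the members of a class of the log2 deviation from the RB-proficient mean, for each array labelled RB-deficient (circles) and each RB-proficient array (squares), with all 18417 genes at the right. COPI reaches −2.10 in the array labelled RB-deficient 2. The circles lie below the squares for COPI, COPII, cargo receptors and translocon, and also for all genes. They do not for the Golgi matrix and SNARE genes, whose median changed sign with the scaling.

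Among the COPI genes, ARF1 had the lowest difference of all members. ARF1, the GTPase that recruits COPI to Golgi membranes (probe set 7910229), read 4.77, 3.19 and 2.90 in arrays 1 to 3 labelled RB-deficient, against 7.50, 7.53 and 7.68 in RB-proficient arrays 1 to 3. The RB-proficient arrays were tight and the other 3 lay far below them, in a group with mean 3.62 ± 1.01 (SD), against 7.57 ± 0.09 (SD). The difference was −3.95 (SE 0.59, adjusted p 0.166), with a 95% interval of −5.27 to −2.62, or 15.4-fold lower. Its size depends on dim signals, since the offset of 16 gave −2.80 (adjusted p 0.00871), while the array labelled RB-deficient 3 alone against the RB-proficient arrays gave −4.67.

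GBF1, the exchange factor that loads ARF with GTP at the cis-Golgi, was also lower. GBF1 read 3.30, 4.21 and 4.65 in the arrays labelled RB-deficient, against 6.97, 6.52 and 7.50 in the RB-proficient arrays, a difference of −2.94 (SE 0.55, adjusted p 0.206). The groups were separated by more than 1 log2 unit. With the offset of 16 its adjusted p was 0.0248, with trend and robust 0.0356, and from the array labelled RB-deficient 3 alone the difference was −2.34.

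The other ARF genes split into ARF3, which was lower, and a pair that overlapped. ARF3, a close relative of ARF1 in class I, read 4.0, 5.41 and 6.02 in arrays with the RB-deficient label, against 7.20, 6.75 and 7.75 in the RB-proficient arrays, a difference of −2.09 (SE 0.63, adjusted p 0.233). The array labelled RB-deficient 1 was the lowest, and no value overlapped. ARF4 and ARF5, the class II ARFs that act between the ER, the intermediate compartment and the Golgi, overlapped between the groups. ARF4 read 7.95, 7.80 and 8.15 with the RB-deficient label against 8.30, 7.54 and 8.52 with the RB-proficient label (difference −0.16, 95% interval −1.27 to 0.96), and its sign turned with quantile normalization. ARF5 read 9.35, 9.23 and 8.84 with the RB-deficient label against 9.07, 9.30 and 9.07 with the RB-proficient label, and its difference of 0.00 (95% interval −1.05 to 1.04) took a positive sign with quantile normalization and with centring. Within each array, the log2 ratio of ARF1 to ARF5 differed by −3.94, and that of ARF1 to ARF4 by −3.79, without overlap between groups. The exact permutation p was 0.1 for both, the smallest that 3 against 3 allows, and 0.231 adjusted over the 30 pairs of related members compared, two-sided. The ratio of ARF1 to ARF3 overlapped between the groups (difference −1.86, exact permutation p 0.3).

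The 7 coatomer subunits measured among the members all had negative differences, of unequal size. COPZ2, a further coatomer subunit outside the member list, went the other way (difference 1.05, given below). COPA, the alpha subunit, read 3.89, 3.96 and 4.97 in the arrays labelled RB-deficient, against 6.96, 6.78 and 7.64 in the RB-proficient arrays, a difference of −2.85 (SE 0.53, adjusted p 0.206). Its arrays were close within each group and far apart between them. COPG1, the gamma subunit, read 2.77, 4.90 and 7.08 with the RB-deficient label against 7.95, 8.05 and 8.66 with the RB-proficient label, a difference of −3.31 (SE 0.94, adjusted p 0.227). Here the array labelled RB-deficient 1 was lowest by far, and without arrays 1 and 2 of that label the difference was −1.14. COPZ1, the zeta subunit, read 5.21, 3.70 and 4.89 with the RB-deficient label against 6.63, 6.38 and 7.18 with the RB-proficient label, a difference of −2.14 (SE 0.56, adjusted p 0.213). COPB2, the beta prime subunit, differed by −1.47 (SE 0.56), COPE, the epsilon subunit, by −1.19 (SE 0.53), and ARCN1, the delta subunit, by −1.13 (SE 0.52), each without overlap. COPB1, the beta subunit, was the exception, with 8.05, 7.59 and 8.23 with the RB-deficient label against 8.56, 7.91 and 8.61 with the RB-proficient label and a difference of −0.40 (SE 0.49), and its groups overlapped. The interval for COPB1 (−1.50 to 0.70) does not exclude a shift as large as that of COPE.

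**Figure D3:**
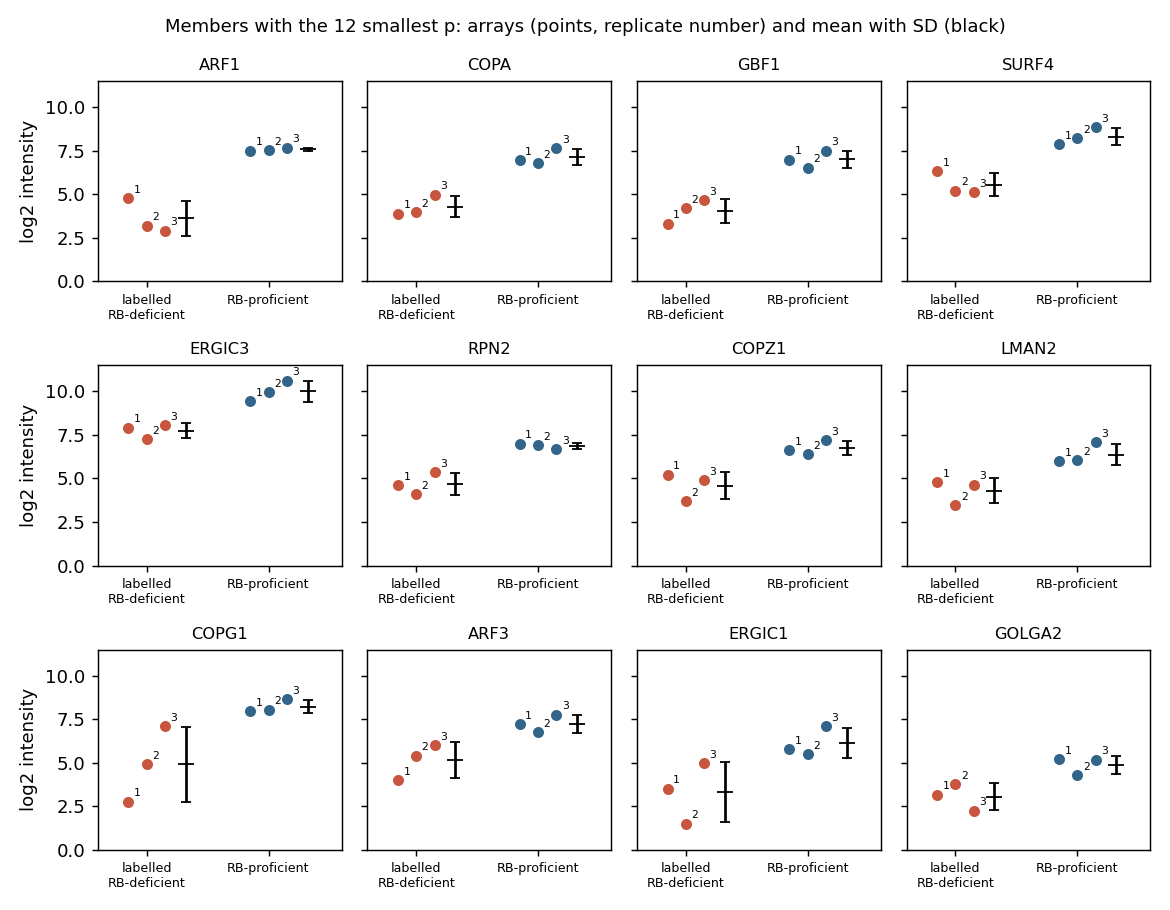
Log2 intensity in each array (points, numbered by replicate) for the 12 members with the smallest unadjusted p, with the mean and SD of each group in black, arrays labelled RB-deficient left and RB-proficient right. The groups do not overlap in any panel, and the spread is wide for COPG1 and ERGIC1 in the arrays labelled RB-deficient.

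In the COPII group the lowest differences, those of SEC24D and SEC23A, rested mostly on 1 array. SEC24D, a cargo-binding subunit of the inner coat, read 0.00, 4.73 and 5.31 in the arrays labelled RB-deficient, against 5.91, 6.04 and 5.06 in the RB-proficient arrays. The array labelled RB-deficient 1 sat at the floor and the array labelled RB-deficient 3 lay within the RB-proficient range. The difference of −2.33 (SE 1.20, adjusted p 0.424) became −0.65 without the array labelled RB-deficient 1. SEC23A, which stimulates GTP hydrolysis by SAR1, was lowest in the same array, with 1.15, 5.05 and 5.43 with the RB-deficient label against 6.15, 5.48 and 6.36 with the RB-proficient label. Its difference of −2.12 (SE 1.01, adjusted p 0.387) became −0.76 without the array labelled RB-deficient 1, although no value overlapped. Its paralog SEC23B was even between arrays, with 7.24, 6.89 and 6.89 with the RB-deficient label against 7.84, 7.85 and 8.41 with the RB-proficient label, a difference of −1.03 (SE 0.47, adjusted p 0.376) without overlap.

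The SEC24 paralogs, which select different cargo signals, had differences of both signs. SEC24A was the member with the highest difference, with 7.05, 7.59 and 7.60 in arrays with the RB-deficient label and 7.15, 6.85 and 7.02 in the RB-proficient arrays, and its groups overlapped (difference 0.40, 95% interval −0.65 to 1.46). SEC24B read 5.23, 7.62 and 6.94 with the RB-deficient label against 7.43, 6.91 and 6.86 with the RB-proficient label, low only in the array labelled RB-deficient 1 (difference −0.47). SEC24C read 3.83, 4.72 and 5.85 with the RB-deficient label against 5.49, 6.55 and 7.29 with the RB-proficient label, a difference of −1.64 (SE 0.68, adjusted p 0.331) with overlap. Within arrays, the ratio of SEC24C to SEC24A differed by −2.05 and that of SEC24D to SEC24A by −2.73, both without overlap (exact permutation p 0.1, adjusted 0.231). The size of the second rests largely on SEC24D at the floor in the array labelled RB-deficient 1, where the log2 ratio was −7.05. The highest ratio with the RB-deficient label was −2.29, near the lowest RB-proficient one, −1.96.

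The GTPases that start COPII assembly overlapped between the groups. SAR1A read 8.15, 6.55 and 7.88 in the arrays labelled RB-deficient, against 8.60, 8.03 and 9.05 in the RB-proficient arrays (difference −1.03), and SAR1B read 8.82, 7.67 and 9.24 with the RB-deficient label against 8.57, 8.88 and 9.33 with the RB-proficient label (difference −0.35). The array labelled RB-deficient 2 was the lowest for both. For the outer cage, SEC31A differed by −1.02 (SE 0.50) without overlap, and SEC13, which also serves in nuclear pores, by −1.16 (SE 0.61) with overlap.

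The cargo receptors split into a lower and an overlapping set. SURF4, a receptor for soluble secretory cargo, read 6.32, 5.21 and 5.11 in the arrays labelled RB-deficient, against 7.87, 8.21 and 8.83 in the RB-proficient arrays. All 3 arrays lay well below, and the difference was −2.76 (SE 0.55, adjusted p 0.206), or 6.77-fold lower. With the offset of 16 the adjusted p was 0.0196, with trend and robust 0.0271, and the array labelled RB-deficient 3 alone gave −3.19. LMAN2, a lectin that binds high-mannose glycoproteins, read 4.78, 3.47 and 4.64 with the RB-deficient label against 5.99, 6.06 and 7.08 with the RB-proficient label, a difference of −2.08 (SE 0.57, adjusted p 0.216). Its relative LMAN1 (ERGIC-53), the lectin receptor for coagulation factors, read 9.27, 8.73 and 10.14 with the RB-deficient label against 9.34, 10.00 and 10.44 with the RB-proficient label, with overlap and a difference of −0.55 (SE 0.56).

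The ERGIC proteins, which cycle between ER and intermediate compartment, divided in the same way. ERGIC3 read 7.92, 7.27 and 8.08 in the arrays labelled RB-deficient, against 9.45, 9.94 and 10.62 in the RB-proficient arrays, a difference of −2.25 (SE 0.53, adjusted p 0.206). Its 3 low arrays lay close together, and under the offset of 16 it passed (adjusted p 0.0306), as it did under trend and robust (0.0253). ERGIC1 read 3.50, 1.50 and 4.97 with the RB-deficient label against 5.77, 5.50 and 7.11 with the RB-proficient label, a difference of −2.80 (SE 0.86, adjusted p 0.239) with the array labelled RB-deficient 2 lowest. ERGIC2 read 7.87, 6.57 and 8.15 with the RB-deficient label against 7.58, 7.45 and 8.24 with the RB-proficient label, with overlap, a difference of −0.23 and a 95% interval of −1.52 to 1.06. The ratio of ERGIC3 to ERGIC2 differed by −2.02 and that of ERGIC1 to ERGIC2 by −2.57, without overlap (exact permutation p 0.1, adjusted 0.231).

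Of the p24 family, which packs cargo and helps form vesicles, TMED10 stood lowest. TMED10 read 5.24, 5.15 and 6.15 in the arrays labelled RB-deficient, against 6.94, 6.83 and 7.63 in the RB-proficient arrays, a difference of −1.62 (SE 0.52, adjusted p 0.257). TMED3 read 6.35, 6.66 and 6.16 with the RB-deficient label against 6.92, 6.68 and 7.54 with the RB-proficient label, a difference of −0.66. Neither gene overlapped between the groups, TMED3 by a narrow margin. TMED2, a p24 partner of TMED10, read 10.06, 9.20 and 9.65 with the RB-deficient label against 10.28, 9.92 and 10.46 with the RB-proficient label, overlapping, a difference of −0.59. TMED9 read 8.71, 8.44 and 7.40 with the RB-deficient label against 8.30, 7.58 and 7.94 with the RB-proficient label, high in the arrays labelled RB-deficient 1 and 2 and low in the array labelled RB-deficient 3 (difference 0.25). The KDEL receptors, which return ER chaperones, overlapped between the groups. KDELR1 read 8.32, 8.68 and 7.98 with the RB-deficient label against 8.80, 8.62 and 9.53 with the RB-proficient label (difference −0.66), and KDELR3 read 5.21, 4.22 and 4.50 with the RB-deficient label against 4.34, 5.19 and 5.56 with the RB-proficient label (difference −0.39).

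**Figure D4:**
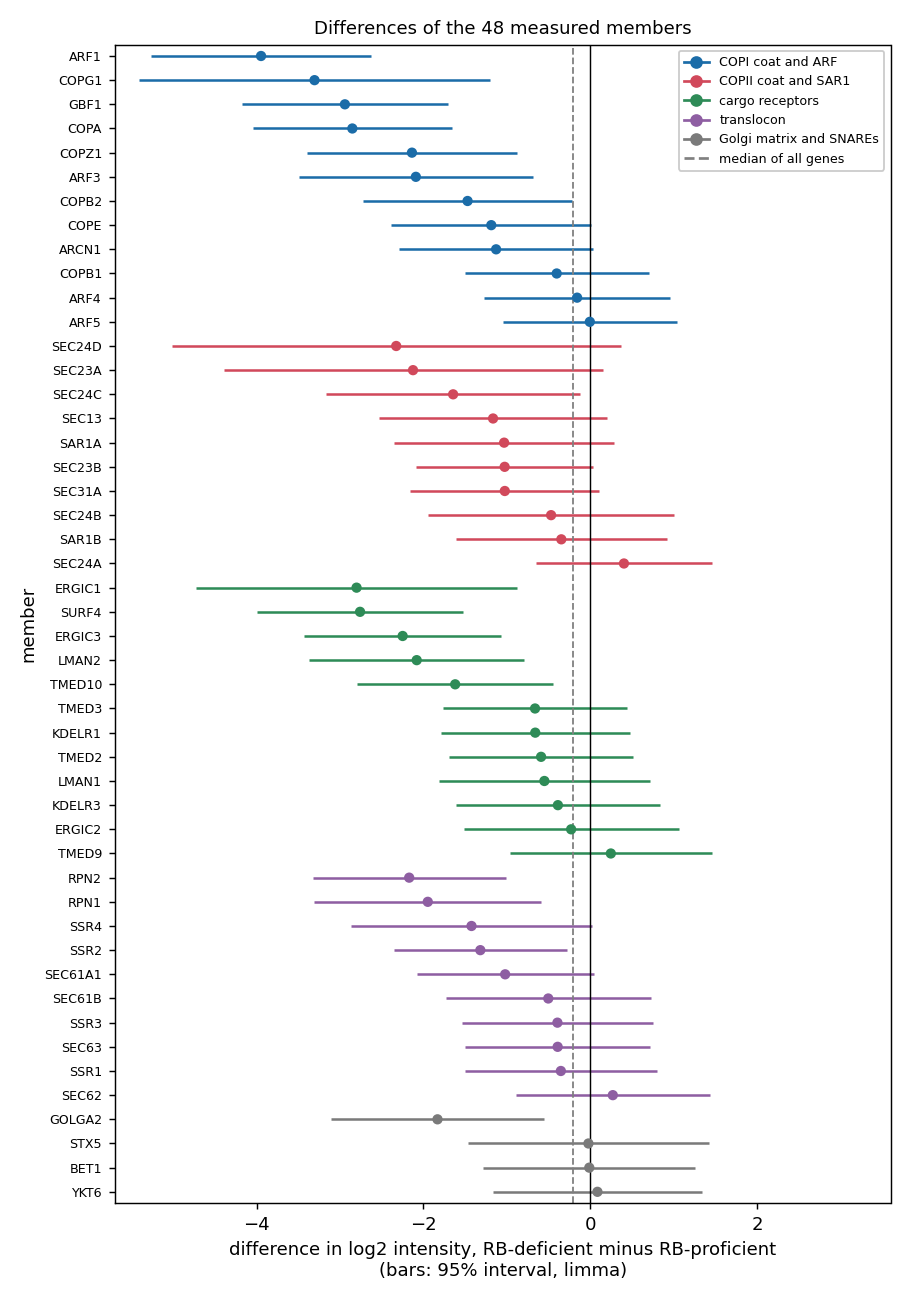
Difference in log2 intensity (RB-deficient minus RB-proficient) of each measured member with its 95% interval from limma (bars, n = 3 arrays per group), grouped by class, with 0 as a solid line and the median of all genes as a dashed line. ARF1 lies farthest left at −3.95, SEC24A farthest right at 0.40, and within most classes a lower set sits beside members whose intervals include 0, among them ARF4, ARF5, BET1 and STX5, whose signs changed under another scaling.

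At the ER membrane, the lowest genes were the ribophorins of oligosaccharyltransferase. RPN2 read 4.62, 4.09 and 5.37 in the arrays labelled RB-deficient, against 7.00, 6.90 and 6.70 in the RB-proficient arrays, a difference of −2.17 (SE 0.52, adjusted p 0.207). The RB-proficient arrays were close together and the others clearly below, and with the offset of 16 the adjusted p was 0.0416. RPN1 read 6.18, 4.70 and 6.24 with the RB-deficient label against 7.47, 7.14 and 8.35 with the RB-proficient label, a difference of −1.95 (SE 0.61, adjusted p 0.246), also without overlap. SEC61A1, the pore-forming subunit of the channel, read 8.05, 8.10 and 8.43 with the RB-deficient label against 9.41, 8.85 and 9.38 with the RB-proficient label, with no overlap and a difference of −1.02 (SE 0.47, adjusted p 0.377). SEC61B, a small subunit of the channel, overlapped, at a difference of −0.50 (SE 0.55).

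The accessory factors SEC62 and SEC63, which serve post-translational import, overlapped between the groups. SEC62 read 9.03, 9.35 and 8.44 in the arrays labelled RB-deficient, against 9.14, 8.15 and 8.72 in the RB-proficient arrays (difference 0.27, 95% interval −0.89 to 1.44), and SEC63 differed by −0.39 (95% interval −1.50 to 0.72). In the TRAP complex, SSR2 read 7.07, 7.12 and 7.46 with the RB-deficient label against 8.53, 8.39 and 8.69 with the RB-proficient label, a difference of −1.32 (SE 0.46, adjusted p 0.278) with tight groups that did not overlap. SSR4 read 7.50, 5.69 and 5.39 with the RB-deficient label against 7.28, 7.50 and 8.07 with the RB-proficient label, where the array labelled RB-deficient 1 lay within the RB-proficient range, a difference of −1.42 (SE 0.64). The other members of the complex differed by less. SSR1 read 9.77, 8.66 and 9.53 with the RB-deficient label against 9.52, 9.51 and 9.98 with the RB-proficient label and SSR3 read 8.40, 8.07 and 8.49 with the RB-deficient label against 8.18, 8.62 and 9.34 with the RB-proficient label, both with overlap, at differences of −0.35 and −0.39. The ratio of SSR2 to SSR1 differed by −0.97 and that of SSR2 to SSR3 by −0.92, without overlap (exact permutation p 0.1, adjusted 0.231).

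Of the Golgi matrix and fusion genes, GOLGA2 (GM130), the cis-Golgi matrix protein, was apart from the SNAREs. GOLGA2 read 3.16, 3.75 and 2.25 in the arrays labelled RB-deficient, against 5.20, 4.29 and 5.16 in the RB-proficient arrays, a difference of −1.83 (SE 0.57, adjusted p 0.245) without overlap. Its signal was dim, and the offset of 16 gave a difference of −0.89. The SNAREs STX5, BET1 and YKT6, which fuse vesicles with the Golgi, overlapped between the groups. YKT6 read 8.46, 8.63 and 7.19 with the RB-deficient label against 8.11, 7.57 and 8.34 with the RB-proficient label (difference 0.09), BET1 differed by −0.01 (95% interval −1.28 to 1.26) and STX5 by −0.02 (95% interval −1.47 to 1.42), and the signs of BET1 and STX5 turned when arrays were centred.

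Of the 30 within-array ratios between related members, 13 did not overlap between the groups. All 13 had an exact permutation p of 0.1, so the design could not take any of them past 0.05. The share without overlap among pairs of all genes was not computed. The pairs also share genes, ARF1 and SEC24A among them, and come from a list drawn up with results known. The count of 13 is therefore a description only.

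The 12 members with TGACGTGG in a promoter window had a median difference of −0.91, with 5 of 12 lower without overlap, where 15.3% of all genes were. The 31 members with a window and no match had a median of −1.03, with 16 of 31. Those with the element ran from ARF1 at −3.95 to SEC24A at 0.40, the lowest and the highest of all members, and both of their sites are printed above.

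Other genes of the pathway had a median nearer 0. Of 92 further symbols, 86 were measured, with a median difference of −0.57. CTAGE5, PDCD6, TMED7, USO1 and SRPR, an older symbol of SRPRA, were not analysed under those names. By limma 0 passed over all genes, with 19 lower (10.8% of all genes) and 1 higher (2.85%) at an unadjusted p under 0.05, and 0 passed with the offset of 16 or with trend and robust. In 24 of the 86 the arrays labelled RB-deficient lay below the RB-proficient ones without overlap (27.9%, against 15.3% of all genes), and in 4 above (7.12% of all genes). The tethers, SNAREs and fusion factors (37 measured) had the lowest median of these lists, −0.98, with 13 of 37 lower without overlap. TRAPPC12, TRAPPC3 and TRAPPC4, subunits of the TRAPP tethering complexes, differed by −2.38 (SE 0.67), −1.77 (SE 0.51) and −1.95 (SE 0.62). They do not stand for all TRAPP genes, of which the others, named after their values were seen, ran from −2.82 for TRAPPC9 to 0.47 for TRAPPC6A, with TRAPPC5 at 0.31.

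Among genes for signal recognition, signal peptide cleavage and glycosylation (24 measured) the median was −0.43 and 6 of 24 were lower without overlap, where 15.3% of all genes were. SRPRA, a subunit of the signal recognition particle receptor, differed by −1.56 (SE 0.50), TRAM1, a translocon-associated membrane protein, by −1.54 (SE 0.52), and DAD1, an oligosaccharyltransferase subunit, by −1.38 (SE 0.48). The further cargo receptors (10 measured) had a median of −0.22, with 1 of 10 lower and 1 of 10 higher without overlap, about as for all genes (15.3% and 7.12%). BCAP31, an ER membrane protein that handles membrane cargo, differed by −2.50 (SE 0.64), its relative BCAP29 by 0.71 (SE 0.48), and MCFD2, the partner of LMAN1, by −1.11 (SE 0.67). MCFD2 overlapped between the groups, and leaving out the array labelled RB-deficient 2 gave −0.51.

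The COPII assembly list (8 measured, median −0.63) held a pair of relatives with opposite signs. SEC16A, the scaffold of ER exit sites, read 3.18, 5.26 and 6.25 in the arrays labelled RB-deficient, against 6.72, 6.92 and 7.24 in the RB-proficient arrays, a difference of −2.07 (SE 0.75, adjusted p 0.284), or −1.21 without the array labelled RB-deficient 1. SEC16B, its shorter relative, read 6.04, 5.88 and 5.34 with the RB-deficient label against 4.41, 4.60 and 4.17 with the RB-proficient label, a difference of 1.36 (SE 0.48, adjusted p 0.278) in the other direction. Neither overlapped between the groups and neither passed. TFG, which organises COPII carriers, differed by −1.12 (SE 0.50). In the list of COPI and ARF regulators (7 measured, median −0.73), COPZ2, the second zeta subunit of COPI, was also higher without overlap, with 5.42, 5.81 and 4.89 with the RB-deficient label against 4.10, 4.21 and 4.69 with the RB-proficient label and a difference of 1.05 (SE 0.50), opposite to COPZ1. ARFGEF2, a trans-Golgi exchange factor for ARF, differed by −1.15 (SE 0.55), and ARFGAP2 by −2.08, with overlap and with the array labelled RB-deficient 1 at the floor. Without that array the ARFGAP2 difference was −0.60.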

How the data were processed

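The deposited values are linear intensities, 1 per probe set and array, made with Affymetrix Expression Console 1.1, per the submitters' processing notes. How probes were summarised, corrected for background and normalized is not stated there. Total RNA was amplified with the WT-Ovation Pico system, per the labels' protocols. Of 33297 probe sets, 19460 had 1 gene symbol in the platform annotation. Each array was scaled to the median of the 6 array medians, a floor of 1 was applied, and values were converted to log2. The test was limma's (version 3.58.1 under R 4.3.3), with lmFit and eBayes, two-sided, adjusted over 18417 genes by Benjamini-Hochberg. It was also run on simulated normal noise with the same spread in both groups. Spread in these arrays was unequal, with a median SD over all genes of 0.84 (labelled RB-deficient) and 0.40 (RB-proficient). The simulation therefore does not show how the test behaves under unequal spread. No detection calls entered, so dim signals may be background. Genes at the floor made up 4.71%, 1.62% and 0.684% in arrays 1 to 3 labelled RB-deficient. In RB-proficient arrays 1 to 3 they made up 0.407%, 0.326% and 0.684%. The array labelled RB-deficient 1 had the lowest deposited median intensity, 21.4, and was scaled by 1.26. The number of arrays limits the precision. Same-numbered arrays did not deviate together (correlations −0.12, 0.07 and −0.11), so no pairing was used.

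The members, their classes and the further pathway lists were chosen with earlier results of these data known. Full values are given for the 12 members with the smallest p, for the highest and lowest of each class and for paralogs, and for at most 3 genes of each further list. COPB1, LMAN1, RPN1 and SEC61A1 were given array values after those were seen. The alternatives were quantile normalization, centring, a floor or an offset of 16, removal of the dimmest 25% of genes, probe set means, trend and robust, the replicate number as a block, and left-out arrays. Promoter sequences are RefSeq's.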

Additional observations from a re-analysis of the deposited data

How the results depend on the processing

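Over 15 alternatives, the members' median difference ran from −1.19 to −0.67, and the count lower without overlap from 21 to 31. The 21 came with centring, and the 31 without the arrays labelled RB-deficient 1 and 2. Leaving out arrays can only keep or raise a count without overlap, and no share of all genes is set beside these counts. Without the arrays labelled RB-deficient 1 and 2 the median was −0.67 for the members, −1.17 for COPI, −0.56 for COPII, −0.93 for cargo receptors, −0.72 for the translocon and −0.50 for the Golgi matrix and SNARE genes, and 1 member was higher without overlap; the array left is assumed to vary like the others. The Golgi matrix and SNARE median was 0.078 with quantile normalization and 0.12 with centring. Genes past the threshold numbered 0 with quantile normalization, 0 without the dimmest 25% of genes, 0 without the arrays labelled RB-deficient 1 and 2, 58 with a floor of 16, 193 with an offset of 16 and 61 with trend and robust, against 1 with the settings reported, and members past it 1, 8 and 5 with the last 3. With the replicate number as a block, 1 gene and 0 members passed, and no call changed.

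With single arrays left out, the members' median ran from −1.19 to −0.84, and the medians from −2.0 to −1.50 for COPI, −1.23 to −0.81 for COPII, −0.84 to −0.44 for cargo receptors, −0.95 to −0.62 for the translocon and −0.49 to 0.10 for the Golgi matrix and SNARE genes. Genes past the threshold numbered 0 to 4, members 0 to 0, members lower without overlap 24 to 29 and members higher 0 to 2.

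Of the 67 named genes, 11 lost their direction, and the cause was not tested. With quantile normalization the difference was 0.051 for ARF4, 0.13 for ARF5 and 0.16 for BET1. With centring it was 0.13 for ARF5, 0.12 for BET1 and 0.11 for STX5. Without the arrays labelled RB-deficient 1 and 2 it was 0.029 for ARF4, 0.32 for SAR1B, 0.21 for LMAN1, 0.39 for ERGIC2, −0.53 for TMED9, −0.23 for SEC62, 0.31 for BET1 and −0.81 for YKT6. With single arrays left out it ran from −0.45 to 0.044 for ARF4, −0.11 to 0.14 for ARF5, −0.98 to 0.21 for SEC24B, −0.68 to 0.11 for SAR1B, −0.54 to 0.25 for ERGIC2, −0.017 to 0.64 for TMED9, −0.39 to 0.32 for BET1, −0.59 to 0.60 for STX5 and −0.18 to 0.54 for YKT6. Dim signals limit sizes, since the floor and offset set how low a gene can read.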
